A study of Mus musculus with 12 samples.

Results

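The interleukin receptor chains described here are 10 genes of cytokine receptors on T cells, namely Il2rg, Il2ra, Il2rb, Il15ra, Il7r, Il21r, Il4ra, Il12rb1, Il12rb2 and Il18r1. They were taken by gene symbol, and all 10 were found among the 13948 genes of the count table without restimulation, among the 35556 symbols of the table with it, and so among the 13625 symbols present in both. RNA was sequenced from OT-I T cells, mouse CD8+ cytotoxic lymphocytes that carry one transgenic T cell receptor for an ovalbumin peptide. The study asked how exposure to all-trans retinoic acid (ATRA, a vitamin A metabolite that acts through nuclear receptors) during expansion affects such cells once they are driven towards exhaustion. There were 4 groups of 3 libraries, CTRL and ATRA cells sampled at the end of co-culture (co-cultured) and CTRL and ATRA cells sampled after a further stimulation (restimulated).

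What all 12 libraries share is an expansion of splenic cells with antibodies to CD3e and CD28 and with IL-2, which is itself a ligand of 3 of the chains, then 5 days of culture, then 72 h at 1% oxygen with GL261, a mouse glioma line made to express ovalbumin. ATRA cells had 5 ng/mL ATRA during expansion and CTRL cells had DMSO in its place. Neither was added in the co-culture. Restimulated cells had anti-CD3e for 24 h more. Live cells were sorted on CD45.2, a leukocyte surface marker, and not on CD8, so the sort itself does not separate T cells from other leukocytes. The labels give neither the age of the mice nor the number of mice or cultures behind a group, and p-values then measure only the spread between these libraries, which may be technical. Each CTRL library shares a batch with the ATRA library of the same number, and the co-cultured and restimulated libraries have separate sets of batches, so state and batch set cannot be told apart. In these bulk samples fewer cells that express a gene and less RNA of that gene per cell cannot be told apart either.

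Total counts were 23558244 to 26111497 in the co-cultured libraries and 16286775 to 20114121 in the restimulated ones. A count of 3 corresponded to 0.110 to 0.183 CPM (counts relative to each library's scaled total), a floor that covers counting error only. The smallest member count was 21. Markers of CD8 T cells (6 genes, of which none was at 0) summed to 1160 to 1589 CPM in co-cultured CTRL, 1487 to 1597 in co-cultured ATRA, 977 to 1199 in restimulated CTRL and 1254 to 1275 CPM in restimulated ATRA cells. These 6 were Cd8a and Cd8b1 with Cd2, Cd3d, Cd3e and Cd3g, so the sum is not of CD8 genes alone. In restimulated cells mean Cd8a was 172 CPM for CTRL against 151 CPM for ATRA, and mean Cd8b1 was 141 against 143 CPM. Cd2 (141 against 270 CPM) and Cd3g (237 against 316 CPM) had the larger rises there. In co-cultured cells mean Cd8a was 305 against 342 CPM and Cd8b1 185 against 255 CPM, while Cd2 was lower with ATRA (204 against 147 CPM). Cd4 reached at most 1.22 CPM in any library. Markers of myeloid cells and glia in the restimulated table ran from Csf1r and Gfap, at 0, and Lyz2, at up to 0.0560 CPM, to Itgam at up to 2.58, Sox9 at up to 8.57, Cd68 at up to 23.2 and Axl at up to 81.5 CPM. Within groups, log CPM correlated across genes at 0.976 to 0.994 except in co-cultured ATRA cells, where replicate 3 correlated at 0.948 and 0.962 with the others. That library and co-cultured CTRL replicate 1 stood apart from their groups. Values that leaving them out moved by over 1.5 times, or past the threshold, are given beside many of the results, though not all.

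Cytokine receptors of this kind are built from shared and private chains. The common gamma chain encoded by Il2rg pairs with private chains for IL-2, IL-4, IL-7, IL-15 and IL-21 and signals through the kinases JAK1 and JAK3 to STAT factors. These cytokines set the growth, survival and memory of CD8 T cells. The IL-12 receptor is a pair of chains that signals to STAT4, and the IL-18 receptor belongs to the IL-1 receptor family and signals through MYD88, and together they drive interferon gamma production.

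The upstream sequences of 4 chains are shown because their genes gave the contrasts on which the results turn. Il21r and Il4ra are neighbours on chromosome 7 and were both higher in restimulated ATRA cells, Il18r1 on chromosome 1 was the chain that was lower, and Il7r on chromosome 15 was called higher in co-cultured ATRA cells and not in restimulated ones. Each run holds the 250 bases before the start of the gene in RefSeq on build GRCm38.p6, not the build mm39 of the counts, from 5′ to 3′ on the gene's strand, and capitals mark a motif match. An upstream sequence was at hand for 8 of the 10 chains, and Il2rb and Il12rb1, which had none in the source used here, are named only. Il18r1 has 3 starts in that table, of which 1 is shown.
Il21r, chr7:125603179-125603428, plus strand: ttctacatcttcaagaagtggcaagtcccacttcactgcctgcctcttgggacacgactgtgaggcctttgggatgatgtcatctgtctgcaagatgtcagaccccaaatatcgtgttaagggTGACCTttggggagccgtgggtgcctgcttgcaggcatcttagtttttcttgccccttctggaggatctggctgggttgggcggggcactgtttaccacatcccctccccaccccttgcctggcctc
Il4ra, chr7:125552021-125552270, plus strand: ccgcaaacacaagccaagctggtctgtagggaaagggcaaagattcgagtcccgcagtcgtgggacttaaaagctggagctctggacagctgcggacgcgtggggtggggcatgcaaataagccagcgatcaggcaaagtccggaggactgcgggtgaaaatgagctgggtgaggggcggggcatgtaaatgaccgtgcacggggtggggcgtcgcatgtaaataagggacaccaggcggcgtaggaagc
Il18r1, chr1:40465302-40465551, plus strand: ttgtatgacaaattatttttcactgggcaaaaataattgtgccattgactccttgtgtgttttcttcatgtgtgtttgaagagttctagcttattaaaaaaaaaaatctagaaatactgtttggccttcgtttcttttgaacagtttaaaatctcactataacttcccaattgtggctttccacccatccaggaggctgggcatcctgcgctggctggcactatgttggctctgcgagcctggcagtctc
Il7r, chr15:9529877-9530126, minus strand: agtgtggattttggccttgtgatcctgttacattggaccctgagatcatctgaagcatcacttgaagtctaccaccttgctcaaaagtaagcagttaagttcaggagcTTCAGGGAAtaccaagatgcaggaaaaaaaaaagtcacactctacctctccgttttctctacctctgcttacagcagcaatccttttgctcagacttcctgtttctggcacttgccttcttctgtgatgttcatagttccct

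Both strands of these windows were searched for 3 motifs. The STAT motif TTCNNNGAA was found in the window of Il7r as TTCAGGGAA, 142 bases from the start, and in that of Il12rb2 as TTCTCAGAA, 123 bases from it. Among 32851 promoter windows of the same length 7.02% held it. AGGTCA, a core element that nuclear receptors bind, was found in the window of Il21r on the opposite strand, as TGACCT, 127 bases from the start, and in 14.02% of all windows. The AP-1 motif TGANTCA, present in 6.75% of all windows, was found in none of the 8. A match is a description of these letters and not a binding site, and no match says only that these letters are not in this window.

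After co-culture, 4 of the 10 chains were higher and 1 was lower in ATRA than in CTRL cells (edgeR quasi-likelihood test, adjusted p under 0.05 over all genes, which is the threshold for a call throughout). The raised chains were Il7r, Il12rb1, Il4ra and Il2ra, and the lowered chain was Il18r1. Over all 12111 genes tested, 33.6% were called, 18.1% as higher and 15.5% as lower, so the share of chains called stands beside a large background. Groups did not overlap in the same 5 chains, and 57% of all genes had groups that did not overlap. The median log2 fold change was 0.32 over the 10 chains and 0.01 over all genes. The count fell to 2 without CTRL replicate 2 or without CTRL replicate 3, and came to 9 without the pair of libraries that stood apart, an alternative chosen after seeing the data that narrows the spread by construction.

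After restimulation, 6 chains were higher in ATRA cells, 1 was lower and 3 were not called. The raised chains were Il12rb1, Il4ra, Il21r, Il2rg, Il15ra and Il2ra, and Il18r1 was again the lowered one. Of 12783 genes tested 62.6% were called, 31.8% as higher and 30.8% as lower. Groups did not overlap in 7 of the 10 chains and in 68.8% of all genes. The median log2 fold change was 0.71 over the chains and 0.02 over all genes. Across both states Il2ra, Il4ra and Il12rb1 were called higher in each, Il18r1 lower in each, Il2rg, Il15ra and Il21r higher after restimulation but not after co-culture, and Il7r higher after co-culture but not after restimulation. Neither comparison called Il2rb or Il12rb2.

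**Figure D1:**
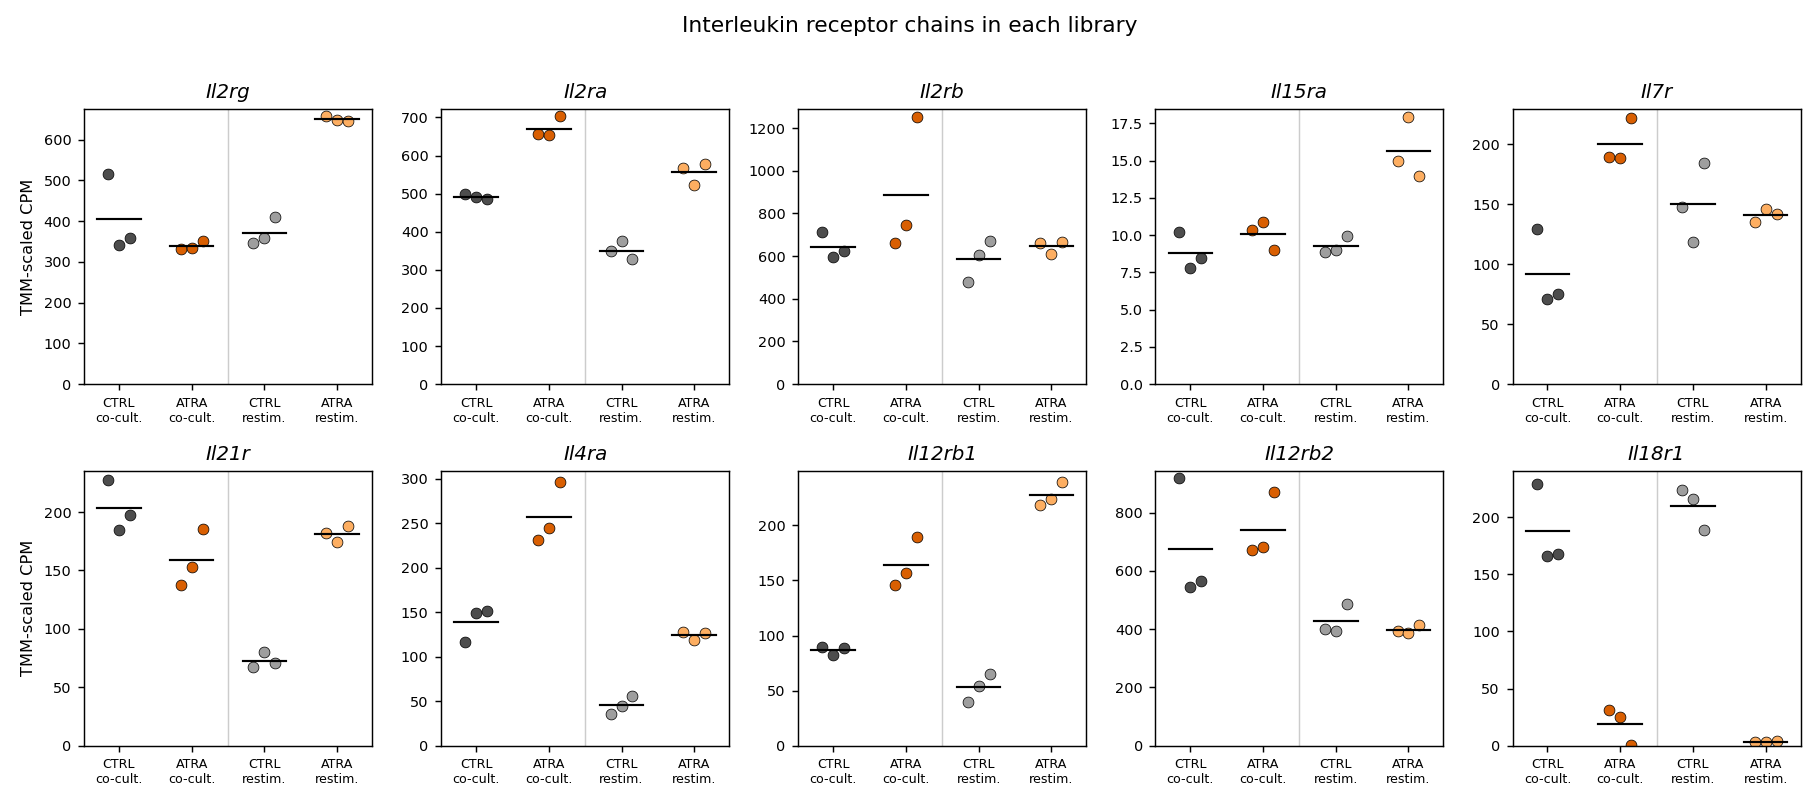
TMM-scaled CPM (vertical axis, from 0) of each chain in each library, with 1 point per library, the horizontal bar at the group mean and the 4 groups along the horizontal axis; the grey line separates the tables, which were scaled separately. Il18r1 is at 3.51 to 3.82 CPM in restimulated ATRA libraries against 189 to 224 CPM in restimulated CTRL libraries, and Il12rb1 and Il4ra are higher in ATRA cells in both states with no overlap.

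**Figure D2:**
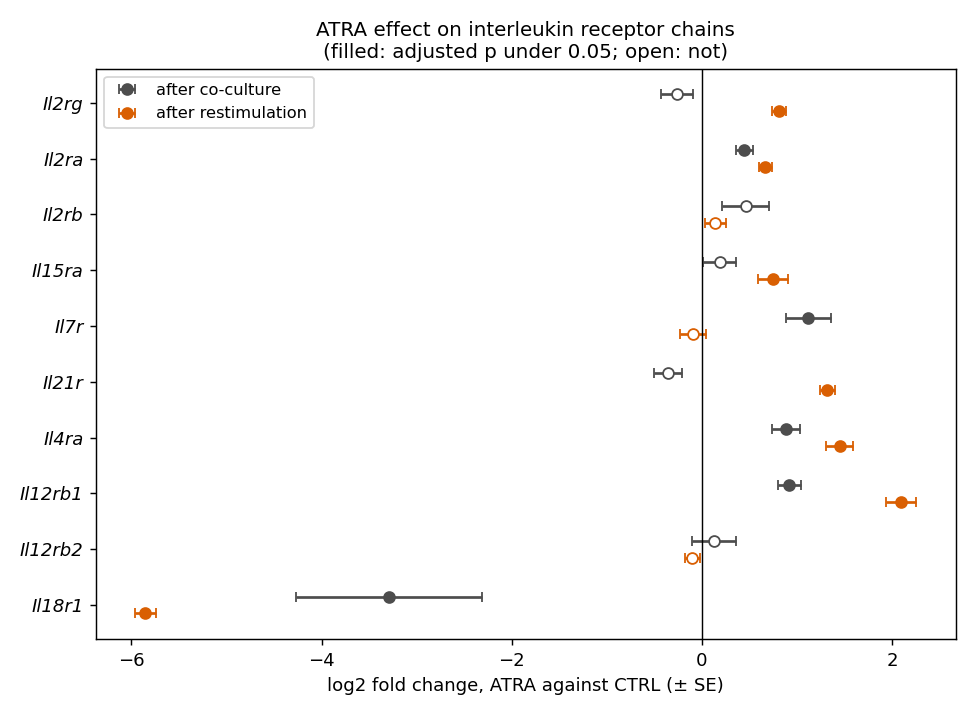
Log2 fold change of ATRA against CTRL (horizontal axis) with its standard error as bars for each chain, after co-culture (grey) and after restimulation (orange); filled points have an adjusted p under 0.05. Il18r1 lies far below 0 in both states, and Il21r and Il2rg lie below 0 after co-culture without a call and above 0 after restimulation with one.

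Il2rg encodes the common gamma chain. After co-culture it was at 515, 342 and 359 CPM in CTRL libraries 1 to 3 and at 332, 333 and 351 CPM in ATRA libraries 1 to 3. CTRL library 1 was the high one, and the groups overlapped. The log2 fold change was -0.26 ± 0.17 (SE), with a 95% interval of -0.66 to 0.14 (edgeR adjusted p = 0.256), and it was -0.05 without CTRL replicate 1 and -0.07 without both libraries that stood apart. After restimulation the CTRL libraries were at 345, 358 and 411 CPM and the ATRA libraries at 659, 649 and 646 CPM. All ATRA libraries were higher, and Il2rg rose by 0.81 ± 0.07 on the log2 scale (edgeR adjusted p = 9.35e-07).

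Il2ra, the private alpha chain (CD25) that gives the IL-2 receptor its high affinity, was raised in both states. Co-cultured CTRL libraries were at 498, 491 and 487 CPM and ATRA libraries at 656, 653 and 703 CPM. The spread within either group was narrow beside the gap, with a log2 fold change of 0.45 ± 0.09 (edgeR adjusted p = 0.0118). The difference was higher in ATRA in 3 of 3 batches, by 0.40 to 0.53 on the log2 scale, but with the batch as a replicate block the adjusted p was 0.0614, and it was 0.0642 and 0.0698 without CTRL replicate 2 and 3. After restimulation CTRL libraries were at 349.96, 374 and 327 CPM and ATRA libraries at 566, 523 and 579 CPM, a log2 fold change of 0.67 ± 0.07 (edgeR adjusted p = 4.03e-06). Il2ra overlaps the long non-coding gene Gm39760 in RefSeq, and the strand setting of the counting is not given in the sources used here.

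Il2rb, the beta chain shared by the receptors for IL-2 and IL-15, was not called in either state. Co-cultured CTRL libraries were at 711, 594 and 622 CPM and ATRA libraries at 661, 744 and 1251 CPM. ATRA library 3 was far above the rest, and the other ATRA libraries lay within or close to the CTRL range. The log2 fold change was 0.46 ± 0.25 with a 95% interval of -0.13 to 1.05 (edgeR adjusted p = 0.182). It was 0.13 without ATRA replicate 3 (edgeR adjusted p = 0.363) and was called at 0.22 without both libraries that stood apart (edgeR adjusted p = 0.00348). Restimulated CTRL libraries were at 478, 607 and 672 CPM and ATRA libraries at 662, 610.5 and 666 CPM. These overlapped, with a log2 fold change of 0.14 and an interval of -0.11 to 0.39 (edgeR adjusted p = 0.300). Without restimulated CTRL replicate 3 it was called higher, at 0.24 (edgeR adjusted p = 0.0422).

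Il15ra encodes the alpha chain that binds IL-15 with high affinity and presents it to neighbouring cells. It lies next to Il2ra on chromosome 2. It had 147 to 343 counts per library, few beside the other chains in CTRL cells, and was at 10.2, 7.78 and 8.45 CPM in co-cultured CTRL and 10.3, 10.9 and 8.98 CPM in co-cultured ATRA libraries, which overlapped (log2 fold change 0.19, 95% interval -0.22 to 0.60, edgeR adjusted p = 0.414). Without CTRL replicate 1 the change was 0.31 (edgeR adjusted p = 0.199), and without both libraries that stood apart it was called at 0.39 (edgeR adjusted p = 0.0251). Restimulated CTRL libraries were at 8.87, 8.98 and 9.94 CPM and ATRA libraries at 14.9, 17.9 and 13.96 CPM. Every restimulated ATRA library was above every CTRL library, and Il15ra rose by 0.75 ± 0.16 on the log2 scale (edgeR adjusted p = 0.00121).

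Il7r encodes the IL-7 receptor alpha chain (CD127), which long-lived memory T cells carry and which is also part of the receptor for TSLP. Co-cultured CTRL libraries were at 129, 71.3 and 75.4 CPM and ATRA libraries at 189.8, 188 and 222 CPM. The lowest ATRA library stood above the highest CTRL library, CTRL library 1, and Il7r rose by 1.12 ± 0.24 on the log2 scale (edgeR adjusted p = 0.0151). The call was lost without CTRL replicate 2 (adjusted p = 0.0581) and without CTRL replicate 3 (adjusted p = 0.0663). Restimulated libraries were at 148, 119 and 184 CPM in CTRL and 135, 146 and 142 CPM in ATRA cells. All 3 ATRA libraries lay inside the CTRL range there, with a log2 fold change of -0.09 and an interval of -0.41 to 0.22 (edgeR adjusted p = 0.585). Without restimulated CTRL replicate 2 it was called lower, at -0.24 (edgeR adjusted p = 0.0466).

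Il21r encodes the private chain for IL-21, a cytokine that sustains CD8 T cells in chronic infection. Co-cultured CTRL libraries were at 227, 185 and 197 CPM and ATRA libraries at 137, 153 and 186 CPM. ATRA library 3 reached the lowest CTRL library, and the log2 fold change of -0.36 ± 0.14 was not called (edgeR adjusted p = 0.0945). It was lower in ATRA in 3 of 3 batches, and it was called lower without ATRA replicate 3, at -0.49 (edgeR adjusted p = 0.00960). Il21r was also called lower in 3 of the 7 alternatives other than leaving out 1 library, over which it ran from -0.44 to -0.36. Restimulated CTRL libraries were at 67.4, 80.3 and 70.5 CPM and ATRA libraries at 182, 175 and 188 CPM. The ATRA libraries were all far above the CTRL libraries, and Il21r rose by 1.32 ± 0.08 on the log2 scale, a 2.499-fold higher level (edgeR adjusted p = 3.72e-08).

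Il4ra encodes the alpha chain of the receptors for IL-4 and IL-13 and was raised in both states. Co-cultured libraries were at 117, 149 and 152 CPM in CTRL and at 231, 245 and 296 CPM in ATRA cells. Every ATRA library was above every CTRL library, with a log2 fold change of 0.89 ± 0.15 (edgeR adjusted p = 0.00696). Restimulated CTRL libraries were at 35.6, 44.3 and 56.0 CPM and ATRA libraries at 127, 118 and 126 CPM. The gap was wider than the spread of either group, and Il4ra rose by 1.45 ± 0.14 on the log2 scale (edgeR adjusted p = 1.15e-05).

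Il12rb1 encodes the chain that the receptors for IL-12 and IL-23 share, and it had the largest rise of the 10 chains after restimulation. In co-cultured cells CTRL libraries were at 89.3, 82.5 and 88.4 CPM and ATRA libraries at 146, 156 and 189.8 CPM. The groups were well apart, and Il12rb1 rose by 0.92 ± 0.12 on the log2 scale (edgeR adjusted p = 0.00341). Restimulated CTRL libraries were at 40.02, 53.8 and 65.4 CPM and ATRA libraries at 218, 223 and 239 CPM. ATRA cells had a 4.28-fold higher level, a log2 fold change of 2.10 ± 0.16 (edgeR adjusted p = 9.96e-06).

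Il12rb2, the chain that carries the STAT4 docking site and is specific to IL-12, was not called in either state. Co-cultured CTRL libraries were at 917, 545 and 567 CPM and ATRA libraries at 671, 681 and 869.6 CPM. CTRL library 1 was above all ATRA libraries and the other CTRL libraries were below them, with a log2 fold change of 0.13 and a 95% interval of -0.42 to 0.68 (edgeR adjusted p = 0.679). Without both libraries that stood apart it was called at 0.29 (edgeR adjusted p = 1.47e-05). Leaving out 1 library gave values from -0.01 to 0.42, without a call. Restimulated libraries were at 400.4, 394 and 485 CPM in CTRL and 392, 387 and 414 CPM in ATRA cells. They overlapped, at -0.10 with an interval of -0.28 to 0.08 (edgeR adjusted p = 0.301). The log2 ratio of Il12rb1 to Il12rb2 counts, which is not corrected for length and is compared only between groups, was -3.03 ± 0.25 (SD, n = 3) in restimulated CTRL and -0.81 ± 0.03 in restimulated ATRA cells, and -2.92 ± 0.38 and -2.17 ± 0.04 in co-cultured CTRL and ATRA cells. Because Il12rb2 overlaps Serbp1 in RefSeq and the strand setting of the counting is not given in the sources used here, its counts are uncertain.

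Il18r1 encodes the ligand-binding chain of the IL-18 receptor, and it was the chain with the largest difference in either state. Co-cultured CTRL libraries were at 229, 166 and 168 CPM and ATRA libraries at 31.2, 25.4 and 0.907 CPM, the last from 21 counts. All ATRA libraries were below all CTRL libraries, and ATRA library 3 was far below the other ATRA libraries. Il18r1 fell by 3.29 on the log2 scale with a standard error of 0.98 (edgeR adjusted p = 0.0417). The call was lost without any one of the CTRL libraries (adjusted p = 0.0979 to 0.101) and without ATRA replicate 1 (0.0520) or 2 (0.0953). Without ATRA replicate 3 it was -2.73 (edgeR adjusted p = 0.000176), and without both libraries that stood apart it was -2.55 (edgeR adjusted p = 1.08e-11).

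Restimulated CTRL libraries had Il18r1 at 224, 216 and 189 CPM and ATRA libraries at 3.53, 3.51 and 3.82 CPM. Here the ATRA libraries were close to one another, and Il18r1 was 57.8-fold lower in ATRA cells, a log2 fold change of -5.85 ± 0.11 (edgeR adjusted p = 6.57e-12). It had the third smallest p of all genes and stood at rank 18 among the falls by size. NK cells also express this receptor. The 5 NK cell markers listed had a sum of 3.92 to 4.88 CPM in restimulated CTRL cells and of 2.77 to 6.02 CPM in restimulated ATRA cells, with 1 and 2 of the 5 at 0 in the group. Of these genes Klre1 was lower in ATRA cells (0.837 to 1.41 against 2.99 to 4.27 CPM) and Klra4 higher (1.51 to 2.26 against 0 to 0.393 CPM). In co-cultured cells 4 of the 5 were in the table. Their sum ran from 8.71 to 12.2 CPM for CTRL libraries and from 0.734 to 2.06 CPM for ATRA libraries. Most of the CTRL sum was Klre1, with a mean of 9.79 CPM against 0.574 CPM for ATRA. Klra4 also had a lower mean with ATRA (0.239 CPM for CTRL against 0). Klrb1c (0.377 against 0.805 CPM) and Klra8 (0.0521 against 0.0982 CPM) had higher means with ATRA. Of the 2 tested after co-culture, 1 was called lower and 1 was not called. The part of NK cells in either Il18r1 result was not tested.

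The genes beside Il18r1 on chromosome 1 belong to the same receptor family, in the order Il1r2, Il1r1, Il1rl2, Il1rl1, Il18r1 and Il18rap, and they did not all move together. Il18rap, the signalling partner chain of Il18r1, was at 107, 63.6 and 71.8 CPM in co-cultured CTRL and 10.6, 9.72 and 1.34 CPM in co-cultured ATRA libraries, and it fell by 3.48 on the log2 scale (edgeR adjusted p = 0.0114). After restimulation it was at 90.1, 76.5 and 75.1 CPM in CTRL and 22.7, 21.8 and 22.8 CPM in ATRA libraries and fell by 1.84 (edgeR adjusted p = 1.86e-08). The ATRA libraries were below the CTRL libraries in both states. Il1rl1, the IL-33 receptor chain, was at 51.9 to 71.8 CPM in co-cultured CTRL and 0.216 to 0.390 CPM in co-cultured ATRA libraries, and fell by 7.52 (edgeR adjusted p = 8.01e-05). After restimulation it was at 14.9 to 21.7 CPM in CTRL against 1.91 to 2.74 CPM in ATRA libraries and fell by 3.10 (edgeR adjusted p = 1.52e-07).

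The remaining genes of that cluster were chosen for their place in the genome after their values were seen. Il1rl2, an IL-36 receptor chain, fell by 1.33 on the log2 scale after co-culture (edgeR adjusted p = 0.0419) and rose by 0.93 after restimulation (edgeR adjusted p = 0.00932). Il1r2, a decoy receptor for IL-1, was not called after co-culture, with a log2 fold change of 0.08 (edgeR adjusted p = 0.917), nor after restimulation, with 1.602 (edgeR adjusted p = 0.0722). Il1r1, the signalling receptor for IL-1, was at 0 to 0.942 CPM over the 12 libraries and was not tested within either state. Il1rap, an accessory chain of this family encoded elsewhere, fell by 0.98 after co-culture (edgeR adjusted p = 0.0397) and was at 0.08 after restimulation (edgeR adjusted p = 0.609).

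**Figure D3:**
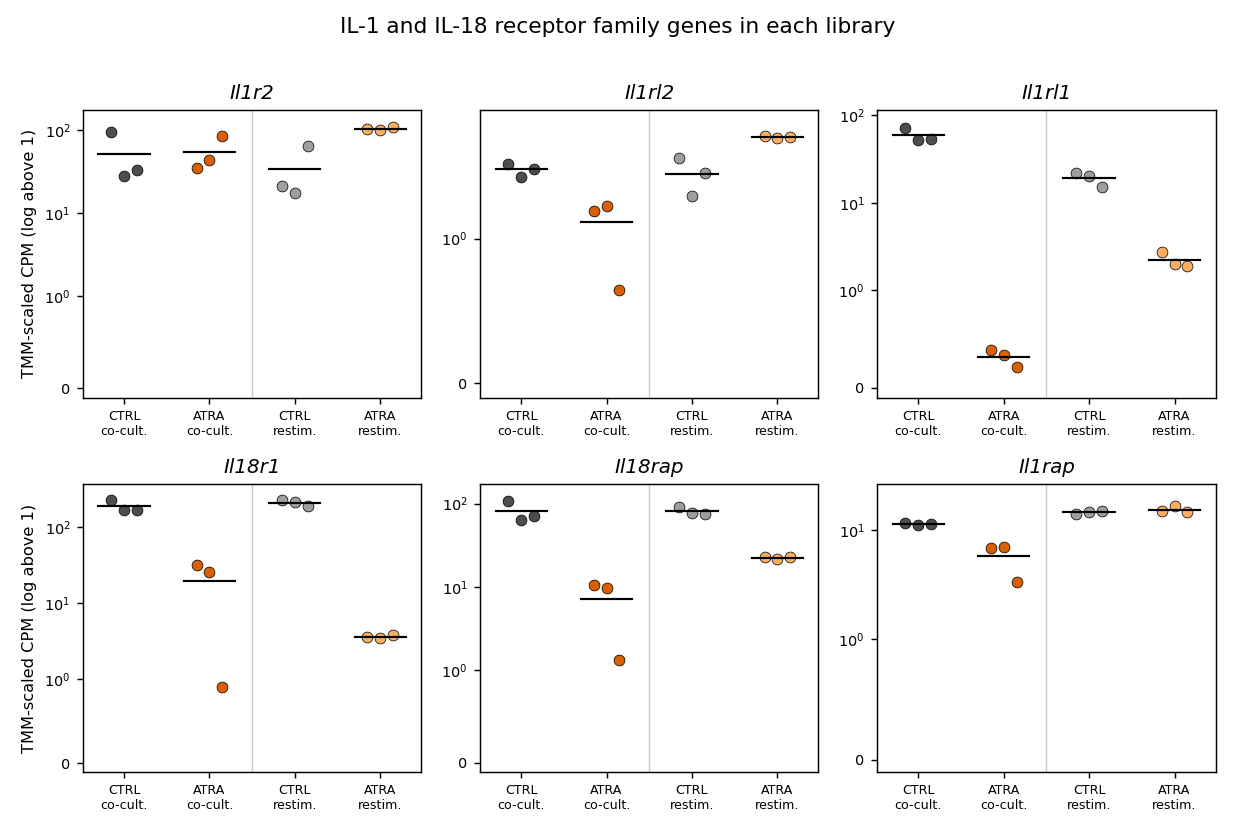
TMM-scaled CPM (vertical axis, linear to 1 and logarithmic above) of 6 IL-1 and IL-18 receptor family genes in each library, with 1 point per library and the bar at the group mean. Il18r1, Il18rap and Il1rl1 are lower in every ATRA library than in every CTRL library of the same state, while Il1r2 overlaps after co-culture and is higher in restimulated ATRA libraries without a call.

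The difference between the ATRA effects in the 2 states was tested as an interaction over the 12 libraries, which also equals the difference between the restimulation changes of ATRA and CTRL cells. It was called for 4 of the 10 chains, 3 with a larger and 1 with a smaller ATRA effect after restimulation. Over 12364 genes 49.2% were called, 23.6% as larger and 25.5% as smaller. The ATRA effect was larger after restimulation by 1.67 ± 0.18 for Il21r (edgeR adjusted p = 1.27e-05), by 1.17 ± 0.22 for Il12rb1 (edgeR adjusted p = 0.000862) and by 1.06 ± 0.19 for Il2rg (edgeR adjusted p = 0.000645), all on the log2 scale. For Il7r it was smaller after restimulation, with a difference of -1.22 ± 0.30 (edgeR adjusted p = 0.00553). Il18r1 gave -2.56 with a standard error of 1.00 and was not called (edgeR adjusted p = 0.0525), but without co-cultured ATRA replicate 3 it was called at -3.12 (edgeR adjusted p = 3.58e-08). Il4ra (0.56, edgeR adjusted p = 0.0571) and Il15ra (0.56, edgeR adjusted p = 0.0533) had adjusted p just above the threshold and were not called. Il4ra was called in 5 of the 6 alternatives other than leaving out 1 library, among them a replicate block, at 0.58 (edgeR adjusted p = 0.0359). It was also called in 3 of 12 leave-one-out fits. Il15ra was called in 2 of the 6 alternatives other than leaving out 1 library, over which it ran from 0.38 to 0.63. In leave-one-out fits Il15ra was called in 1 of 12. No call was made for Il2ra (0.21, 95% interval -0.03 to 0.46), Il2rb (-0.33, interval -0.98 to 0.32) or Il12rb2 (-0.24, interval -0.80 to 0.33). Without co-cultured ATRA replicate 3 Il2rb was at 0.02 and Il12rb2 at -0.09, and without co-cultured CTRL replicate 1 Il12rb2 was called at -0.52 (edgeR adjusted p = 0.0332). Il2ra was called without co-cultured ATRA replicate 3, at 0.26 (edgeR adjusted p = 0.0354). The count of 4 became 7 without co-cultured ATRA replicate 3 and 8 without both libraries that stood apart.

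Restimulated and co-cultured cells were compared within each treatment in the same fit, in which all 12 libraries were scaled together. These comparisons share libraries with those above, and state cannot be told apart from batch set. In CTRL cells 5 chains were lower after restimulation, 1 was higher and 4 were not called, where 32.5% of 12364 genes were called, 16.6% as lower and 15.9% as higher. Il4ra went from 149 ± 21.1 CPM (SD, n = 3) to 45.4 ± 10.2 CPM, a log2 change of -1.72 ± 0.16 (edgeR adjusted p = 1.20e-05). Il21r went from 218 ± 23.0 to 72.9 ± 6.85 CPM, a log2 change of -1.58 ± 0.13 (edgeR adjusted p = 2.66e-06). The groups did not overlap for either of these neighbouring genes, as for 51.5% of all genes. Il12rb1 (-0.81), Il12rb2 (-0.76) and Il2ra (-0.59) also fell, with edgeR adjusted p from 0.000188 to 0.00812. Il7r rose by 0.61 although the groups overlapped (edgeR adjusted p = 0.0451), and 4 of the 6 leave-one-out fits lost that call (adjusted p = 0.0937 to 0.166). Without co-cultured CTRL replicate 1 Il7r was at 0.94 and Il12rb2 at -0.48, both called, and Il2rg moved from -0.22 to -0.02, called in neither.

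In ATRA cells 6 chains were lower after restimulation and 2 were higher, where 61.3% of genes were called, 31.5% as lower and 29.8% as higher, and 67.1% had groups that did not overlap. Il2rg rose from 363 ± 17.1 to 649 ± 7.24 CPM, by 0.84 ± 0.14 on the log2 scale (edgeR adjusted p = 0.000191), and Il15ra rose by 0.53 ± 0.16 (edgeR adjusted p = 0.0104, and 0.0570 without restimulated ATRA replicate 2). Il18r1 (-2.499), Il4ra (-1.16), Il12rb2 (-1.001), Il7r (-0.61), Il2rb (-0.56) and Il2ra (-0.37) fell, with edgeR adjusted p from 6.27e-05 to 0.0368. The Il18r1 groups overlapped, since co-cultured ATRA library 3 was below the restimulated libraries, and the call was lost without co-cultured ATRA replicate 1 (adjusted p = 0.0872) or restimulated ATRA replicate 2 (0.0527). The calls for Il7r and Il2rb were each lost in 4 of 6 leave-one-out fits, and without co-cultured ATRA replicate 3 Il2rb was at -0.21 (edgeR adjusted p = 0.136). Il21r was at 0.09 with a 95% interval of -0.18 to 0.36 (edgeR adjusted p = 0.545) and Il12rb1 at 0.36 (edgeR adjusted p = 0.0556). The Il21r change ran from -0.01 to 0.23 when 1 library was left out, without a call. Over the 6 other alternatives it ran from 0.09 to 0.26 and was called in 2. The Il12rb1 change was called in 5 of the 6 alternatives other than leaving out 1 library, and in 1 of 6 leave-one-out fits. Among the former was a replicate block by library number, at 0.38 (edgeR adjusted p = 0.0250). That block joined same-numbered libraries of both states, which do not share a batch.

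**Figure D4:**
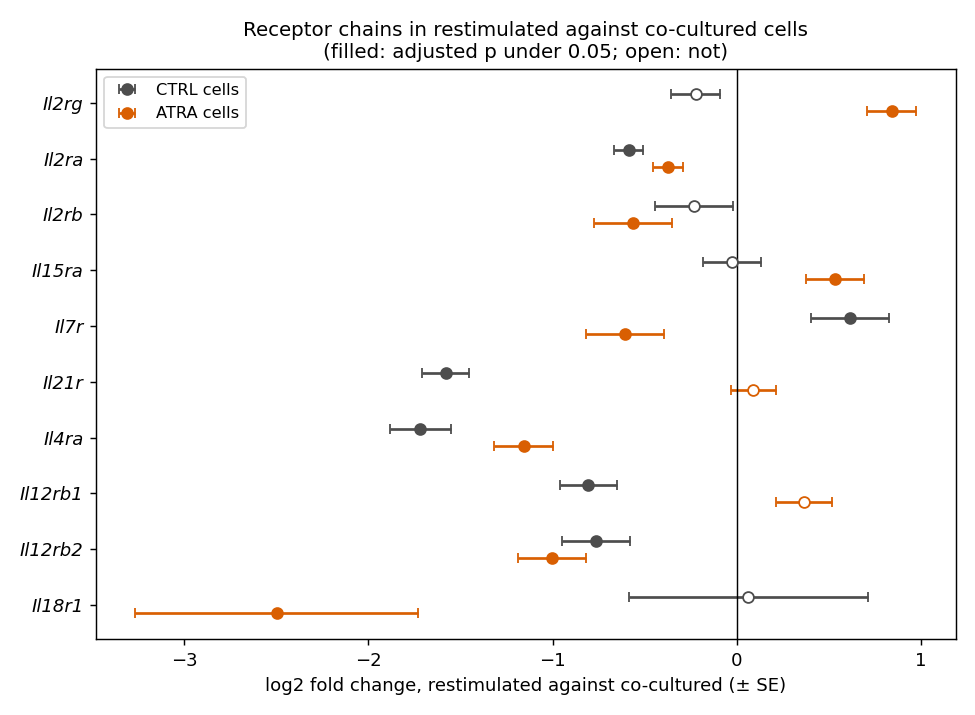
Log2 fold change of restimulated against co-cultured cells (horizontal axis) with its standard error as bars for each chain, in CTRL cells (grey) and ATRA cells (orange); filled points have an adjusted p under 0.05. Il21r is at -1.58 in CTRL and 0.09 in ATRA cells, and Il2rg is at -0.22 in CTRL and 0.84 in ATRA cells.

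Levels of different chains were ordered in restimulated cells, for which the authors' TPM (abundance corrected for transcript length) was used. In CTRL cells the order by mean TPM was Il2rb (358 ± 55.2, SD, n = 3), Il2rg (324 ± 32.2), Il12rb2 (164 ± 15.03), Il18r1 (116 ± 11.4), Il2ra (111 ± 9.505), Il7r (102 ± 20.3), Il12rb1 (57.9 ± 10.3), Il21r (37.6 ± 2.45), Il4ra (22.9 ± 6.202) and Il15ra (17.8 ± 1.75). Values overlapped between Il2rb and Il2rg, between Il18r1 and Il2ra, between Il2ra and Il7r, and between Il4ra and Il15ra. In ATRA cells Il2rg was first at 563 ± 5.52 TPM, followed by Il2rb (401 ± 16.3), Il12rb1 (193 ± 4.86), Il2ra (178 ± 8.80), Il12rb2 (148 ± 3.50), Il7r (99.1 ± 2.40), Il21r (96.9 ± 2.74), Il4ra (55.0 ± 1.59), Il15ra (31.9 ± 6.10) and Il18r1 (2.26 ± 0.0938). Only Il7r and Il21r overlapped there. Il18r1 thus stood at rank 4 in CTRL and at rank 10 in ATRA cells, and Il12rb1 at rank 7 and rank 3.

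**Figure D5:**
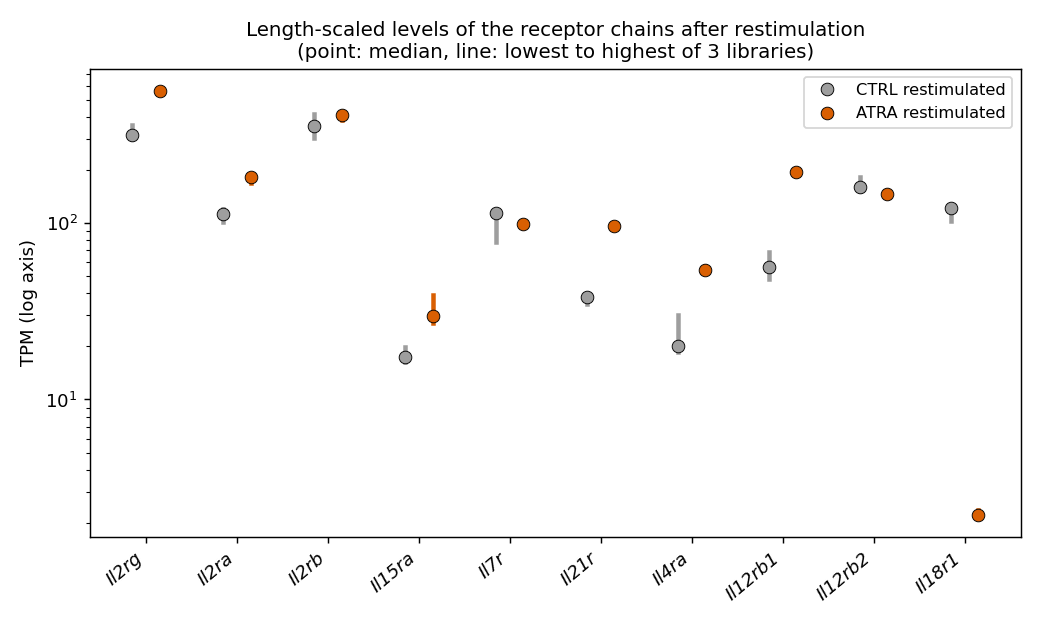
TPM of each chain in restimulated CTRL and ATRA libraries on a logarithmic axis, with the point at the median and the line from the lowest to the highest of 3 libraries. Il18r1 is at 103 to 124 TPM in CTRL and 2.20 to 2.36 TPM in ATRA cells, and Il12rb1 is at 48.3 to 68.8 TPM in CTRL and 187 to 196 TPM in ATRA cells.

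For each chain the gene with the most similar profile was found as the smallest root mean square difference of mean-centred log2 CPM over the 12 libraries, among 9608 other genes with a mean of at least 5 CPM. The closest were Cope for Il2ra (0.0560), Rps4x for Il2rb (0.104), Erp44 for Il2rg (0.109), Gramd4 for Il21r (0.114), Klhl7 for Il15ra (0.114), Rpl37 for Il12rb2 (0.136), Usp3 for Il7r (0.1498), Etv3 for Il12rb1 (0.186), Ctsl for Il4ra (0.238) and Nebl for Il18r1 (0.750). The libraries share treatment, state and batch, and these are descriptions. The difference for Nebl was the largest, beside a standard deviation of 2.83 for Il18r1 itself over the libraries.

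Among the other interleukin receptor chains 19 of 31 listed genes were tested in each state. After co-culture 4 were higher and 4 lower, with a median log2 fold change of 0.26, and after restimulation 11 were higher and 3 lower, with a median of 0.88, beside medians over all genes of 0.01 and 0.02 and shares called over all genes of 33.6% and 62.6%. Il6st, the shared chain of the IL-6 family (gp130), was at 14.6 to 16.0 CPM in co-cultured CTRL and 32.2 to 33.4 CPM in co-cultured ATRA libraries and rose by 1.13 ± 0.10 on the log2 scale (edgeR adjusted p = 0.00109). All ATRA libraries were above all CTRL libraries, in a narrow range.

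Ligands of these receptors were scarce. Only 4 of the 11 listed were tested in each state, of which 1 was higher after co-culture and 3 were higher and 1 lower after restimulation, where 33.6% and 62.6% of all genes were called. Il4 had 0, 1 and 3 counts in co-cultured CTRL and 30, 59 and 318 counts in co-cultured ATRA libraries (edgeR adjusted p = 0.0126, and 0.0587 without CTRL replicate 2). After restimulation it had 0, 0 and 1 counts in CTRL libraries and 65.3 to 76.4 CPM in ATRA libraries (edgeR adjusted p = 5.82e-11), and no fold is given because the CTRL counts are at or under 3. Il23a, a subunit of IL-23, was at 0.122 to 0.538 CPM in restimulated CTRL libraries. With ATRA it was at 3.81 to 5.02 CPM after restimulation, a rise of 3.82 ± 0.46 (edgeR adjusted p = 1.53e-05). Its co-culture means were higher, at 37.5 CPM for CTRL against 13.9 CPM for ATRA, a difference that was not called (edgeR adjusted p = 0.185).

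Of the 11 JAK and STAT genes tested, 1 was higher and 1 lower after co-culture, and 3 were higher and 3 lower after restimulation, with median log2 fold changes of 0.36 and 0.02. The shares called over all genes were 33.6% and 62.6%, so the shares in this list were not above them. Jak3, the kinase that binds the common gamma chain, was at 200.3 to 247 CPM in co-cultured CTRL and 361 to 585 CPM in co-cultured ATRA libraries and rose by 1.04 (edgeR adjusted p = 0.0112), a call lost without CTRL replicate 2 (adjusted p = 0.0534) or 3 (0.0558). Jak2, a kinase of the IL-12 receptor, was at 190.4 to 241 CPM in CTRL against 119 to 143 CPM in ATRA libraries after co-culture and fell by 0.71 (edgeR adjusted p = 0.00964). After restimulation Jak2 was at 185 to 202 CPM in CTRL against 292 to 325 CPM in ATRA libraries and rose by 0.64 (edgeR adjusted p = 5.59e-06). Stat3 rose by 0.70 after restimulation (edgeR adjusted p = 6.47e-07, and 0.0502 in the 12-library fit).

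Among 15 inhibitors of cytokine signalling 2 were higher and 3 lower after co-culture, and 9 were higher and 3 lower after restimulation, with medians of 0.29 and 0.38, beside shares called over all genes of 33.6% and 62.6%. Cish, which is induced by STAT5 and restrains it, was at 23.2 to 27.6 CPM in restimulated CTRL and 169 to 186 CPM in restimulated ATRA libraries and rose by 2.78 (edgeR adjusted p = 2.26e-10). Socs3, an inhibitor of gp130 and IL-12 signalling, was at 0.795 to 1.24 CPM and 16.7 to 21.1 CPM in the same groups and rose by 4.17 (edgeR adjusted p = 1.32e-08). After co-culture Ptpn6, the phosphatase SHP-1, fell by 0.63 (edgeR adjusted p = 0.0118) and Pias1, a SUMO ligase, rose by 0.46 (edgeR adjusted p = 0.0164). For Pias1 the adjusted p was 0.0541 in the fit with the replicate block, and leaving out CTRL replicate 2 (0.0802) or 3 (0.0832) or ATRA replicate 2 (0.0525) also ended the call.

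Of 10 genes that act in IL-18 signalling 1 was higher and 1 lower after co-culture, and 6 were higher and 2 lower after restimulation, with medians of 0.05 and 1.04, beside shares called over all genes of 33.6% and 62.6%. Myd88, the adaptor of the IL-18 receptor, was at 36.2 to 41.6 CPM in co-cultured CTRL and 22.1 to 24.5 CPM in co-cultured ATRA libraries and fell by 0.73 (edgeR adjusted p = 0.00449). Irak2, a kinase downstream of it, rose by 1.74 after co-culture (edgeR adjusted p = 0.0211, and 0.0712 to 0.0722 without any one of the CTRL libraries), was at 1.13 without ATRA replicate 3, and rose by 1.58 after restimulation (edgeR adjusted p = 6.94e-07). Tollip, which restrains IRAK signalling, rose by 1.38 after restimulation (edgeR adjusted p = 1.33e-07).

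Markers of other cells were read in the same libraries, and their part in the results above was not tested. The summed level of the 5 CD4 T cell markers was 57.5 to 68.3 CPM in co-cultured CTRL against 117 to 133 CPM in co-cultured ATRA cells, and to 27.3 to 33.9 and 35.6 to 38.7 CPM after restimulation, with none at 0. Most of that sum was Zbtb7b and Ikzf4, at up to 75.0 and 55.6 CPM, while Foxp3 reached 1.56 CPM. Genes of a GL261-like list had a sum of 885 to 963 CPM in co-cultured CTRL cells and of 1394 to 1555 CPM in co-cultured ATRA cells (8 of 11 in the table, none at 0), and to 849 to 1045 and 993 to 1052 CPM after restimulation (3 and 2 of 11 at 0). Vim, which T cells also express, reached 1479 CPM of that sum. Sox9 was at 0 in restimulated CTRL cells and reached 8.57 CPM in restimulated ATRA cells. Igfbp7, and Axl after co-culture, went the other way. Igfbp7 reached 38.4 CPM in CTRL and 0.663 CPM in ATRA cells after co-culture, and 23.3 and 2.07 CPM after restimulation. Axl reached 121 and 59.4 CPM after co-culture. Of the 4 tested after co-culture 2 were higher and 2 lower, and of the 6 tested after restimulation 3 were higher and 1 lower. Over all genes 33.6% and 62.6% were called.

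B cell markers summed to 7.19 to 16.6 and 4.87 to 10.4 CPM in co-cultured CTRL and ATRA cells (5 of 6 in the table, none at 0) and to 4.15 to 5.27 and 13.7 to 14.1 CPM after restimulation, with 3 of 6 at 0 in restimulated CTRL cells, among them Ms4a1. Dendritic cell markers summed to 10.7 to 15.3 and 4.12 to 7.55 CPM after co-culture (3 of 7 in the table) and to 19.3 to 53.6 and 70.3 to 71.5 CPM after restimulation, of which Itgax, also expressed by activated CD8 T cells, reached 69.0 CPM, and 2 and 3 of 7 were at 0. After co-culture mean Zbtb46 was 10.3 CPM for CTRL against 1.58 CPM for ATRA, while mean Itgax was 2.38 against 3.68 CPM. After restimulation mean Zbtb46 was 0.980 against 2.65 CPM, while mean Flt3 was 0.864 against 0.141 CPM. Monocyte and macrophage markers summed to 12.3 to 13.4 and 19.9 to 24.2 CPM after co-culture (3 of 8 in the table) and to 11.6 to 17.0 and 23.3 to 24.3 CPM after restimulation, with 3 and 2 of 8 at 0. Cd68 reached 12.0 CPM in CTRL and 22.7 CPM in ATRA cells after co-culture, and 15.6 and 23.2 CPM after restimulation. Itgam reached 0.257 and 2.46 CPM after co-culture but 2.58 and 0.552 CPM after restimulation.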

How the data were processed

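Raw counts by gene symbol were deposited in a separate table for each state, and TPM values were deposited for the restimulated libraries. The TPM columns name the treatment but not the library, so they served as unnumbered replicates. The submitters' processing notes list build mm39 with STAR 2.7.11b, Salmon 1.10.3, cutadapt 5.0 and DESeq2 1.42.1. What each tool did, how strand was set and which annotation was used is not given in the sources used here. Of rows that repeated a symbol (32 in the restimulated table) the one with the largest total was kept. The table without restimulation held no row summing to under 10 counts.

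The counts were fitted in edgeR 4.0.16 under R 4.3.3 (TMM scaling, filterByExpr by group, robust quasi-likelihood fits, Benjamini-Hochberg adjustment over all genes tested). ATRA was compared with CTRL on the 6 libraries of a state, and the interaction and the restimulation changes on all 12 libraries and the symbols in both tables. Levels are TMM-scaled CPM within each table. No libraries within a group were alike within sampling noise (smallest chi-square per degree of freedom 3.76).

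The labels pair the libraries, since same-numbered CTRL and ATRA libraries of a state share a batch. Their deviations from the group means correlated at 0.13, -0.06 and 0.07 after co-culture and at -0.03, -0.10 and 0.04 after restimulation, and the replicate block is an alternative. For the restimulation changes the block joined same-numbered libraries of both states, although the labels give the states separate batches. Other alternatives were RLE size factors, library totals, no low-count filter, DESeq2 1.42.0, limma 3.58.1 on log2(TPM + 1), the 12-library fit and leaving out each library.

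The text names all 10 chains, from each other list the 2 called genes with the smallest p in each ATRA comparison, and for each chain the most similar gene. Il13, the other genes of the Il18r1 cluster, Il1rap and marker genes were named outside this rule after their values were seen. The members and lists were chosen with earlier results of these data known.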

Additional observations from a re-analysis of the deposited data

Results flagged for a closer look

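Each value here is the difference between the ATRA effects after restimulation and after co-culture on the log2 scale, which the interaction test called (edgeR adjusted p under 0.05). State cannot be told apart from batch set.

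Among the chains, Il21r differed by 1.67 (-0.36 after co-culture and 1.32 after restimulation), Il12rb1 by 1.17 (0.92 and 2.10), Il2rg by 1.06 (-0.26 and 0.81) and Il7r by -1.22 (1.12 and -0.09).

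Among receptor and ligand genes, Il1rl1 differed by 4.41, lower in ATRA cells in both states (-7.52 and -3.10). Il23a differed by 5.25, from -1.43 after co-culture, which was not called (edgeR adjusted p = 0.185), to 3.82 after restimulation, and without co-cultured ATRA replicate 3 the former was called at -0.90 (edgeR adjusted p = 0.00433).

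Among signalling genes, Jak2 differed by 1.35 and Myd88 by 1.45, and both were called lower after co-culture (-0.71 and -0.73) and higher after restimulation (0.64 and 0.72). Jak3 differed by -1.32 (1.04, called, and -0.28, called, but not without ATRA replicate 2, edgeR adjusted p = 0.0674, nor in the 12-library fit, edgeR adjusted p = 0.172, nor by limma on TPM, at -0.09 with adjusted p of 0.454 or more). Cish differed by 2.19 (0.59, not called, and 2.78), Socs3 by 2.79 (1.37, not called, and 4.17) and Tollip by 1.38 (-0.01, not called, and 1.38). After co-culture Socs3 was called with the replicate block, at 1.39 (edgeR adjusted p = 0.0281), and was at 0.84 without ATRA replicate 3 and, called, at 0.49 without both libraries that stood apart (edgeR adjusted p = 0.0210). Cish was at 0.35 without CTRL replicate 1 and, called, at 0.42 without both (edgeR adjusted p = 7.97e-06). Ptpn6 differed by -0.62 (-0.63 and -1.25) and Pias1 by -0.53 (0.46 and -0.07, the latter not called).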

How the results depend on the processing

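Over 700 alternative values for the 10 chains, none reversed a called direction, 636 stayed on their side of the threshold, 36 passed it and 28 fell short of it. None of the restimulated ATRA effects fell short in any alternative. The count of chains called after co-culture, 5 in the report, was 2 to 6 when 1 library was left out, 4 with the replicate block and 9 without both libraries that stood apart. After restimulation it was 7 to 8 when 1 library was left out and 7 with the replicate block, against 7 in the report. For the interaction it was 4 to 7 when 1 library was left out, 5 with the replicate block, 7 with library totals alone and 8 without both libraries that stood apart, against 4 in the report. For restimulation it was 5 to 6 in CTRL and 4 to 8 in ATRA cells when 1 library was left out, against 6 and 8, and 6 and 9 with the replicate block. For these restimulation counts the block joined same-numbered libraries of both states, which do not share a batch. The replicate block changed the calls of Il2ra after co-culture, Il4ra in the interaction and Il12rb1 for restimulation in ATRA cells, as given in the report, and of no other chain. The cause of these changes was not tested.

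Over all genes, 4071 calls after co-culture became 1613 to 5617 when 1 library was left out and 7980 without both libraries. List counts moved too. After co-culture the other receptor chains went from 8 to 5 with the replicate block and 16 without both libraries, JAK and STAT genes from 2 to 5 with library totals, 6 with DESeq2, 8 in the 12-library fit and 9 without both libraries, inhibitors from 5 to 3 with the block, 9 in the 12-library fit and 11 without both libraries, IL-18 signalling from 2 to 5 and ligands from 1 to 3 without both libraries. After restimulation ligands went from 4 to 8 without a filter, 7 with DESeq2 and 7 with limma on unfiltered TPM, and JAK and STAT genes from 6 to 2 in the 12-library fit. Library totals moved the median of all genes for restimulation in ATRA cells to 0.13, from -0.03. Il15ra, at 147 to 343 counts, and Il18r1 in ATRA cells, at 21 to 800 counts, had the least depth.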
